A study of Mus musculus with 12 samples.

Results

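Levels of 8 genes of the hepatic drug-metabolising system were followed in mouse liver. They were 3 Cyp2b genes (*Cyp2b10*, *Cyp2b9* and *Cyp2b13*), 3 Cyp3a genes (*Cyp3a11*, *Cyp3a13* and *Cyp3a25*), *Por* and *Alas1*. The genes were chosen by symbol, as classical targets of the receptors CAR and PXR or as the suppliers of electrons and heme to the enzymes they encode, and were 8 of the 54838 genes in the count table. Livers came from 12 C57BL/6J mice, a wild-type inbred strain, in 4 groups of 3. The study's methods describe adult females, and *Uty* of the Y chromosome was at 0 in all 12 libraries. For 7 days the mice drank either plain water or a 25 mM solution of ZnSO4. They were then injected with PBS or with 200 µg of dexamethasone (Dex), a synthetic glucocorticoid, and the liver was removed 2 h later. The groups are named water-PBS, which is the control, zinc-PBS, water-Dex and zinc-Dex. All 12 mice were injected and no group was left without an injection, so the effect of the injection itself is part of every level. The labels do not say which mice shared a cage or a day, and p-values weigh group differences against the spread between these mice.

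Cytochromes P450 of the Cyp2b and Cyp3a families are heme enzymes of the endoplasmic reticulum that oxidise drugs, steroids and bile acids, mostly in hepatocytes. Their genes are textbook targets of the nuclear receptors CAR (gene *Nr1i3*) and PXR (*Nr1i2*), which bind DNA with RXRα after a drug or steroid has activated them. Dexamethasone is known as a ligand of the glucocorticoid receptor (*Nr3c1*) and, at high doses, as an activator of mouse PXR. *Por* encodes the cytochrome P450 reductase that hands electrons to the microsomal cytochromes, and *Alas1* encodes the first and rate-limiting enzyme of heme synthesis in the liver. *Cyp2b9* and *Cyp2b13* are known as genes with higher expression in female than in male livers.

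The Cyp2b members lie side by side on chromosome 7, and their upstream sequences are shown because 1 of the 3, *Cyp2b10*, was called with Dex. In GRCm38 with GENCODE M21, *Cyp2b10* (ENSMUSG00000030483) spans chr7:25897620-25926624, *Cyp2b13* (ENSMUSG00000040583) chr7:26061497-26096197 and *Cyp2b9* (ENSMUSG00000040660) chr7:26173411-26210661, all on the plus strand. The sequences below were taken from RefSeq (GRCm38.p6), run 5′ to 3′ from 250 to 41 bases before each RefSeq start and lie outside the annotated genes, at chr7:25897408-25897617, chr7:26173159-26173368 and chr7:26061245-26061454. Capitals mark matches to the half-sites AGGTCA or AGTTCA of nuclear receptors such as CAR and PXR, or to the half-site AGAACA of the glucocorticoid receptor, on either strand.
Cyp2b10: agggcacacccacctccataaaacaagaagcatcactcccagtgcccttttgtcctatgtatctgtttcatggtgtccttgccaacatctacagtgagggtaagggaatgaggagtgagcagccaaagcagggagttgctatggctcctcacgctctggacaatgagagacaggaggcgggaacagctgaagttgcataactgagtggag
Cyp2b9: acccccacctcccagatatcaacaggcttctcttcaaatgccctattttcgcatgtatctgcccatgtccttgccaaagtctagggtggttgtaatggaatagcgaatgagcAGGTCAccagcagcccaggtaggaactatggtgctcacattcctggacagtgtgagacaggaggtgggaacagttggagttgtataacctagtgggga
Cyp2b13: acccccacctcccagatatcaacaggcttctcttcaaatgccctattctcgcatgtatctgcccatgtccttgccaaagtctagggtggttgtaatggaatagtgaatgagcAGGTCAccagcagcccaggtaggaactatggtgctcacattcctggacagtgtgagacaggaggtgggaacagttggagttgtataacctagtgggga
Over the 250 bases before the start, *Cyp2b9* and *Cyp2b13* differed at 2 bases and were 99.2% identical, whereas *Cyp2b10* was 71% identical to each of them over 262 aligned columns. *Cyp2b9* and *Cyp2b13* each held 1 AGGTCA, 138 bases before the start. *Cyp2b10* held none of the half-sites in this window.

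The Cyp3a members lie on chromosome 5 on the minus strand. *Cyp3a11* (ENSMUSG00000056035) spans chr5:145854426-145879964, *Cyp3a25* (ENSMUSG00000029630) chr5:145977194-146009618 and *Cyp3a13* (ENSMUSG00000029727) chr5:137892932-137921619, away from the other two. The upstream sequences of *Cyp3a11* (chr5:145879965-145880104) and *Cyp3a25* (chr5:146009728-146009867) are given on the minus strand, from 250 to 111 bases before the start, because they were the members in which most half-sites were found.
Cyp3a11: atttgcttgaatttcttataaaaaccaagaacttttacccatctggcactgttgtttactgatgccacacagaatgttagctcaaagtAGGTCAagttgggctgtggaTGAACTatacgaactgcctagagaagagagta
Cyp3a25: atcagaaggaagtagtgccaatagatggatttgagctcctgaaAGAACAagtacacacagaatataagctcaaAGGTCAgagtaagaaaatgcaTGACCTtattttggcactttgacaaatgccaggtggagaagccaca
*Cyp3a11* held AGGTCA 162 bases and AGTTCA 142 bases before its start, the latter on the other strand, where it reads TGAACT. *Cyp3a25* held 2 copies of AGGTCA, 177 and 156 bases before its start, the second on the other strand, and AGAACA 207 bases before it. The 3 Cyp3a windows were 52.6% to 57.2% identical to one another.

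None of the half-sites occurred in the windows of *Cyp3a13*, *Por* (ENSMUSG00000005514, chr5:135670033-135735326, plus strand) or *Alas1* (ENSMUSG00000032786, chr9:106233455-106248654, minus strand). Single half-sites are common letters: of 32851 RefSeq windows of 250 bases, 14% held AGGTCA, 11.8% AGTTCA and 16.1% AGAACA. Direct repeats of the nuclear receptor half-sites with a spacer of 3 or 4 bases, in 0.0122% and 0.0244% of all windows, were in none of the members. Neither was the palindrome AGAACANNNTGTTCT of the glucocorticoid receptor, in 0.00913% of windows. The windows of *Por* (65.6%) and *Alas1* (74.4% and 62.4% for 2 annotated starts) had more G and C than those of the cytochromes, at 42.8% to 52.8%. Such matches describe letters near the start only, and enhancers farther away were not looked at.

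Libraries held 9091152 to 12303527 counted reads. Levels are given as normalized counts, which are reads scaled by DESeq2 size factors, and comparisons between genes as normalized counts per kb of exon. Treatment marks followed the labels. The zinc importer gene *Slc39a4* had 561.2 to 746.7 normalized counts in water-PBS and 550.3 to 734.2 in water-Dex, beside 213.9 to 258.9 in zinc-PBS and 185.7 to 245.1 in zinc-Dex. The metallothionein gene *Mt1* rose with zinc (log2 fold change 3.87) and also with Dex alone (4.44). The glucocorticoid receptor target *Fkbp5* rose with Dex (3.12 in plain-water and 2.74 in zinc mice). The 7 hepatocyte markers had summed normalized counts of 1209350 to 1420182 in the 6 PBS-injected and 1573332 to 1741427 in the 6 Dex-injected mice. With Dex, 4 of these markers in plain-water and 6 in zinc mice passed on the adjusted p in DESeq2 but not on size, with median log2 differences of 0.34 and 0.33. On the adjusted p alone, 3067 of 14221 and 3145 of 15657 genes tested passed. The part of the hepatocyte markers in the Dex results below was not tested. Summed markers of Kupffer cells (4280 to 6010), sinusoidal endothelium (3766 to 4279) and bile ducts (588 to 1164) were small beside these, and the 6 pancreas markers summed to 63 to 134. Nearly all of that sum was *Cela1*, with reads in every library, while *Prss2*, *Cpa1* and *Pnlip* were at 0 in all 12 and *Cel* and *Ctrb1* had at most 1 read. The 8 gut epithelium markers summed to 589.7 to 854.1. Of these, *Vil1* had 14.48 to 25.27 in zinc-PBS and 6.301 to 10.01 in water-PBS. *Cdhr2* (means 11.89 and 3.33) and *Muc2* (8.269 and 2.373) were also higher in zinc-PBS, while *Fabp2* had means of 636.4 and 663.7. With zinc and PBS, DESeq2 called 0 of the 2 tested, *Fabp2* and *Lgals4*. *Vil1*, *Cdhr2* and *Muc2* had too few reads to be tested there. With Dex in zinc mice DESeq2 called 1 of 5, lower, where 9.68% of all genes tested were called. In bulk tissue, fewer cells of a type and less RNA per cell cannot be told apart. One library stood apart among inflammatory genes: zinc-PBS replicate 1 had 3021 normalized counts of the chemokine gene *Cxcl1*, against 50.7 and 163 in the other zinc-PBS mice.

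Per kb, *Cyp3a11* was the most abundant member in every group, with 9093 normalized counts per kb in water-PBS. *Cyp2b9* (3064) and *Cyp3a25* (2799) came next. *Cyp2b13* (835), *Por* (764), *Cyp3a13* (636) and *Alas1* (554) followed, and *Cyp2b10* was lowest at 182. Over the 3 mice, *Cyp2b9* and *Cyp3a25* overlapped, as did *Cyp2b13* and *Por*, and *Cyp3a13* and *Alas1*; the other neighbours in this order did not. In water-Dex the order had changed: *Cyp3a11* stood at 16250 per kb, followed by *Cyp3a25* (3369), *Cyp2b10* (2930), *Alas1* (2765), *Cyp2b9* (2482), *Por* (2175), *Cyp3a13* (790) and *Cyp2b13* (667). Here *Cyp3a11* lay above all others and the last pair below all others. Each remaining neighbour in the order overlapped the next. The exon length joined all annotated exons of a gene, 6174 bases for *Alas1* and 5093 for *Cyp3a11* beside 1875 for *Cyp2b13*. Both orders, and the family shares below, depend on these lengths.

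**Figure D1:**
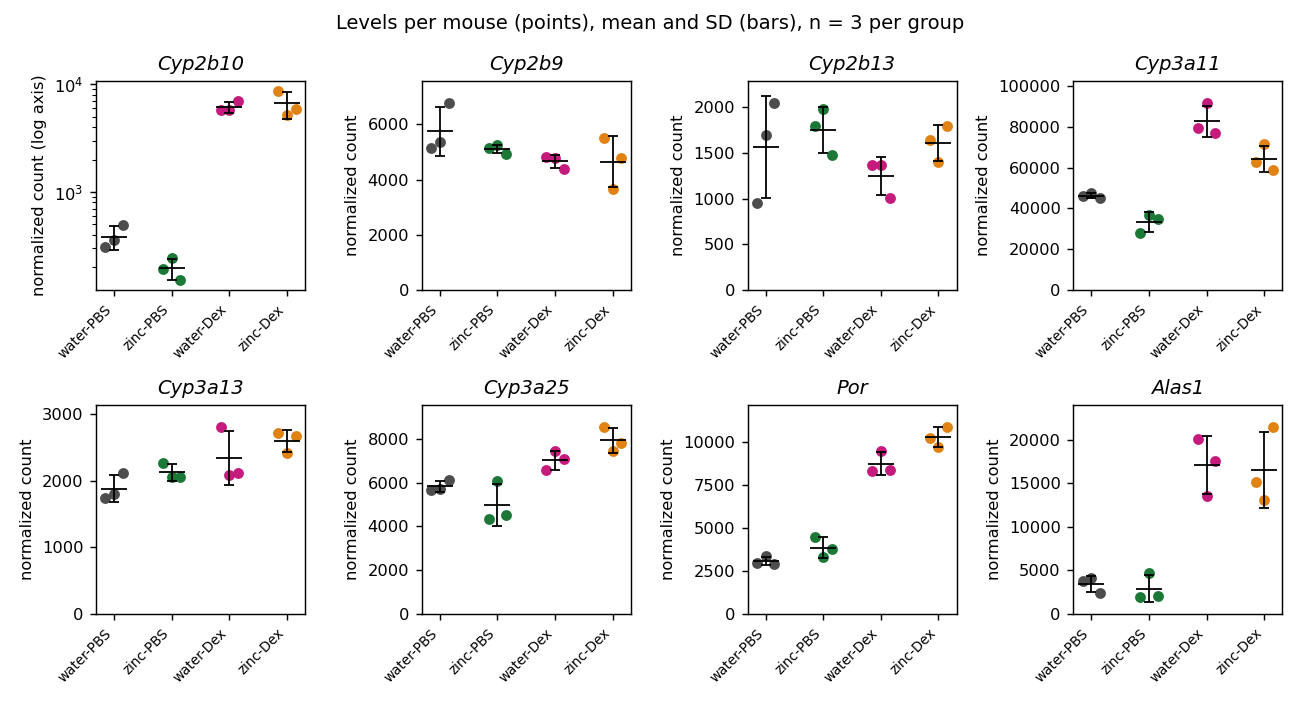
Normalized counts of the 8 genes in each mouse (points; x axis, the 4 groups) with the group mean and SD (bars, n = 3). The *Cyp2b10* panel has a log axis, on which the Dex-injected mice lie at 5235 or above and the PBS-injected mice at 492 or below, and the other panels start at 0.

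The first question was what Dex did to these genes in mice on plain water. Dex raised 4 of the 8 genes, namely *Cyp2b10*, *Alas1*, *Por* and *Cyp3a11*, and lowered none; *Cyp2b10* changed most, by 16.1-fold. A gene was called when its Benjamini-Hochberg adjusted p in DESeq2 was under 0.05 and its absolute log2 fold change above 0.8. Among all 14221 genes tested, 9.68% were called, 4.89% higher and 4.79% lower. The median log2 fold change of the members was 0.58, beside -0.01 over all genes tested.

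*Cyp2b10*, the standard marker gene of CAR activation in mouse liver, had 304.5, 356.7 and 492 normalized counts in the water-PBS mice. In the water-Dex mice it had 5753, 5792 and 7022. All Dex-injected mice lay far above all controls. Its log2 fold change was 4.01 (SE 0.21, adjusted p = 3.84e-79 in DESeq2), the 31st largest among the genes tested. The neighbouring genes were not called. *Cyp2b9* had 5125, 5362 and 6757 normalized counts in water-PBS and 4803, 4773 and 4393 in water-Dex. Its groups did not overlap, but its log2 difference of -0.30 missed the threshold (adjusted p = 0.108 in DESeq2). *Cyp2b13* had overlapping groups, with 956.7, 1698 and 2043 in water-PBS and 1369, 1370 and 1012 in water-Dex. Its log2 difference of -0.32 had a 95% interval from -0.75 to 0.10 (adjusted p = 0.325 in DESeq2).

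The make-up of the Cyp2b members therefore shifted. Per kb, *Cyp2b10* was 4.43% ± 0.26 (SD, n = 3) of the summed level of the 3 Cyp2b members in water-PBS and 48.2% ± 4.71 in water-Dex. The share of *Cyp2b9* was 75.5% ± 4.51 in the first group and 40.9% ± 2.75 in the second. The share of *Cyp2b13* was 20.1% ± 4.32 and 11% ± 1.96. Shares of one sum depend on each other. Reads of these genes can be hard to place: of the 50-base stretches of their transcripts, 27.3% in *Cyp2b13*, 11.2% in *Cyp2b9* and 8.7% in *Cyp2b10* also occurred in another gene.

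**Figure D2:**
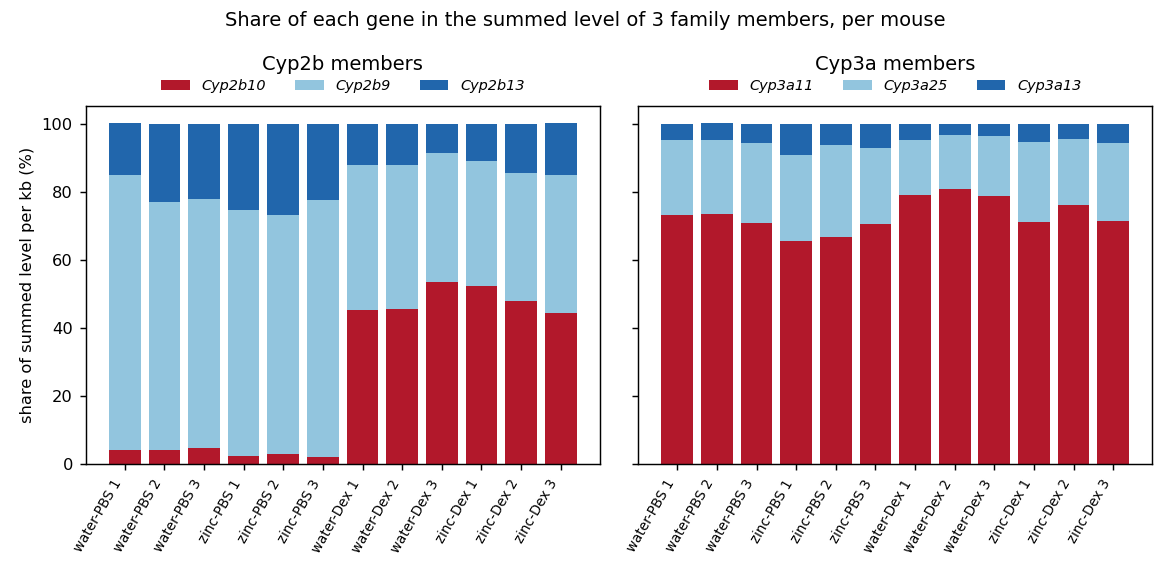
Share of each gene (colours) in the summed normalized count per kb of the 3 Cyp2b members (left) and of the 3 Cyp3a members (right), as percent on the y axis, with 1 bar per mouse. *Cyp2b10* made up 2.06% to 4.73% in PBS-injected and 44.5% to 53.6% in Dex-injected mice, and *Cyp3a11* made up 65.7% to 80.8% throughout.

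*Cyp3a11*, the main drug-oxidising Cyp3a gene of mouse liver, had 46137, 47467 and 45321 normalized counts in water-PBS and 79484, 91538 and 77255 in water-Dex. The groups were well apart, and the control mice lay within a coefficient of variation of 2.34%. Its log2 fold change of 0.84 (SE 0.12, adjusted p = 1.55e-11 in DESeq2) lay just above the 0.8 required, and without water-Dex replicate 2 it was 0.76 and not called. The other Cyp3a members showed smaller differences. *Cyp3a25* had 5668, 5717 and 6109 in water-PBS and 6556, 7434 and 7061 in water-Dex, groups that did not overlap (log2 difference 0.27, adjusted p = 0.102 in DESeq2). *Cyp3a13* had 1733, 1792 and 2114 in water-PBS and 2805, 2088 and 2112 in water-Dex, groups that overlapped (0.31, adjusted p = 0.0523). Of the 50-base stretches of *Cyp3a25*, 26.8% were shared with another gene, mostly *Cyp3a59*. In *Cyp3a11* that share was 6.73%, and in *Cyp3a13* it was 0%.

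*Por* and *Alas1* were called higher, as *Cyp2b10* and *Cyp3a11* were. *Por* had 2959, 3339 and 2914 normalized counts in water-PBS and 8311, 9516 and 8409 in water-Dex, a 2.85-fold difference with no overlap (log2 fold change 1.51, SE 0.11, adjusted p = 1.29e-37 in DESeq2). *Alas1* had 3709, 4118 and 2426 in water-PBS and 20111, 13499 and 17600 in water-Dex, which is 4.99-fold higher (2.32, SE 0.40, adjusted p = 1.61e-07). The *Alas1* groups were far apart although the gene varied more between mice than *Por* did. Its coefficient of variation was 25.8% in water-PBS, where that of *Por* was 7.6%. Both genes overlap a gene on the opposite strand, *Alas1* the transcript *4930500F10Rik* and *Por* the transcripts *Gm16061* and *Gm43091*. The strand setting of the counting is not given in the sources used here, so reads in the overlaps could have been misassigned or left out. On the same strand, *Cyp2b13* overlaps *Rnf170-ps* and *Cyp3a13* overlaps *Gm15502*.

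In mice that had drunk zinc, Dex raised the same 4 genes and lowered none. Of 15657 genes tested in that comparison, 9.68% were called, 5.0% higher and 4.68% lower, and the members' median log2 fold change was 0.81 beside -0.01 over all genes. *Cyp2b10* went from 190.5, 240.4 and 152.1 normalized counts in zinc-PBS to 8762, 5235 and 5920 in zinc-Dex, 34.2-fold higher (log2 fold change 5.09, SE 0.21, adjusted p = 3.49e-124 in DESeq2). It ranked 21st among all genes tested. *Alas1* had 1924, 4669 and 2028 in zinc-PBS and 15149, 13063 and 21439 in zinc-Dex (log2 fold change 2.53, adjusted p = 8.55e-09 in DESeq2). *Por* had 4496, 3292 and 3763 in zinc-PBS and 10279, 9727 and 10891 in zinc-Dex (1.42, adjusted p = 1.64e-33). *Cyp3a11* had 27791, 36999 and 35012 in zinc-PBS and 62726, 71500 and 58774 in zinc-Dex (0.95, adjusted p = 9.64e-15). In each of these genes every Dex-injected mouse was above every PBS-injected one.

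*Cyp3a25* was the member closest to the threshold in zinc mice. It had 4326, 6089 and 4533 normalized counts in zinc-PBS and 8538, 7453 and 7795 in zinc-Dex, with no overlap. Its log2 difference was 0.67 (SE 0.12, adjusted p = 5.40e-07 in DESeq2), which passed on p but not on size; without zinc-PBS replicate 2 it was 0.84 and called. *Cyp3a13* had 2267, 2057 and 2051 in zinc-PBS and 2715, 2413 and 2670 in zinc-Dex (0.29, adjusted p = 0.0816). *Cyp2b9* had 5145, 5237 and 4942 against 5489, 3651 and 4777, and *Cyp2b13* had 1791, 1984 and 1477 against 1647, 1400 and 1793. Both overlapped between groups, with log2 differences of -0.14 and -0.12. Their 95% intervals ran from -0.41 to 0.13 and from -0.54 to 0.31.

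**Figure D3:**
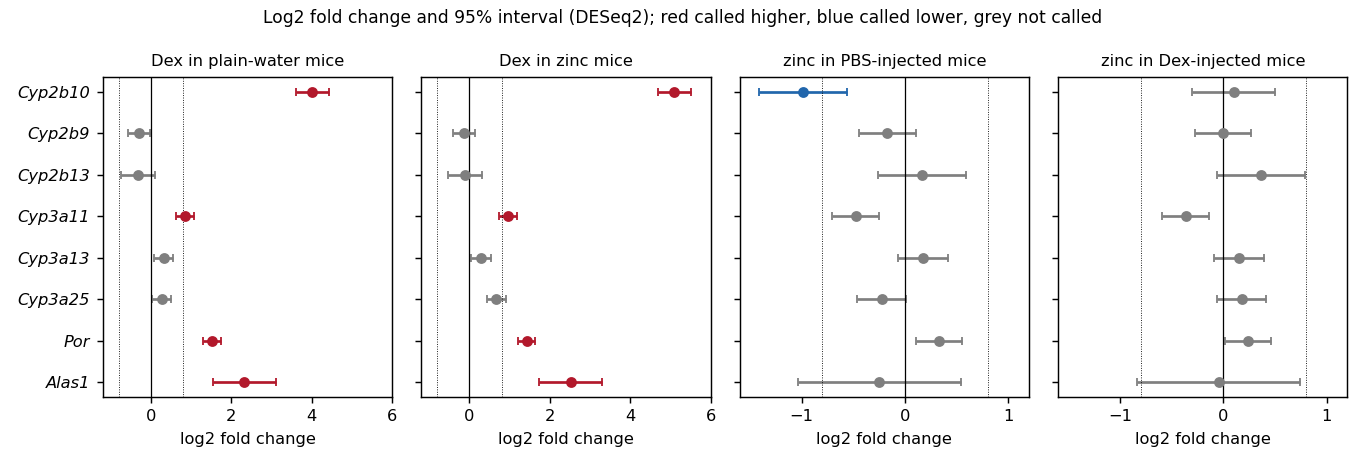
Log2 fold change (x axis) of each gene (rows) in 4 comparisons, with 95% intervals from DESeq2; red marks genes called higher, blue genes called lower and grey genes not called, and dotted lines mark 0.8 in either direction. The 2 Dex panels share one range and the 2 zinc panels a narrower one; *Cyp2b10* stands at 4.01 and 5.09 in the Dex panels and at -0.98 and 0.10 in the zinc panels.

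The second question was what zinc did in mice injected with PBS. Of the 8 genes, 1 was called, *Cyp2b10*, which was lower in zinc-PBS, while 0.138% of 12307 genes tested were called. All 3 zinc-PBS values of *Cyp2b10* (152.1 to 240.4) lay below all 3 water-PBS values (304.5 to 492). The log2 fold change was -0.98 (SE 0.22, adjusted p = 0.00374 in DESeq2), a ratio of 0.506. This call was not stable. With edgeR the adjusted p was 0.207 at the same difference, and the call was also lost without water-PBS replicate 3 (-0.77, adjusted p = 0.0497), without zinc-PBS replicate 1 (-0.97, adjusted p = 0.421) or without zinc-PBS replicate 3 (-0.83, adjusted p = 0.0792). Over all alternatives tried the log2 difference lay between -1.17 and -0.77. The study's own list of liver genes changed by zinc, with cut-offs of 0.8 and 0.05, does not include *Cyp2b10*.

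*Cyp3a11* was also lower with zinc in each mouse, with 27791 to 36999 normalized counts in zinc-PBS beside 45321 to 47467 in water-PBS. Its log2 difference of -0.48 (SE 0.12, adjusted p = 0.0163 in DESeq2) was under the size required. The lowest value belonged to zinc-PBS replicate 1, the library with 3021 normalized counts of *Cxcl1*. That library also had 2865 of *Saa1*, an acute phase gene, beside 250 and 236.3 in the other zinc-PBS mice. It had the lowest *Alas1* of all libraries (1924) and the highest *Por* of the zinc-PBS mice (4496). Whether these move together for a common reason was not tested. The other 2 zinc-PBS mice had 36999 and 35012 of *Cyp3a11*, which is still below the control mice.

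*Alas1* (log2 difference -0.25, 95% interval -1.04 to 0.54), *Por* (0.33, adjusted p = 0.359), *Cyp2b9* (-0.17), *Cyp2b13* (0.16), *Cyp3a13* (0.18) and *Cyp3a25* (-0.23) did not pass in zinc-PBS in DESeq2. For *Alas1* the interval is wide: 2 zinc-PBS mice lay below the controls at 1924 and 2028, and 1 lay above them at 4669.

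Between zinc and plain water in Dex-injected mice, 0 of the 8 genes were called by DESeq2 and 0 by edgeR, while DESeq2 called 0.469% of 12786 genes. At an unadjusted p under 0.05 there were 2, *Cyp3a11* and *Por*. *Cyp3a11* had 62726, 71500 and 58774 normalized counts in zinc-Dex, all below the 77255 to 91538 of water-Dex (log2 difference -0.36, adjusted p = 0.0925). *Por* had 9727 to 10891 in zinc-Dex, all above the 8311 to 9516 of water-Dex (0.24, adjusted p = 0.447). The groups of *Cyp2b13* (0.37, unadjusted p = 0.0906 in DESeq2) and *Cyp3a25* (0.18, unadjusted p = 0.144) did not overlap either, both higher in zinc-Dex. How often groups separate in this way over all genes is not given here. *Cyp2b10* had overlapping values, 5235 to 8762 in zinc-Dex and 5753 to 7022 in water-Dex. Its log2 difference was 0.10, with a 95% interval from -0.30 to 0.50. The interval for *Alas1* ran from -0.83 to 0.74.

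The interaction asked whether the Dex effect itself differed between zinc and plain-water mice. DESeq2 called 0 of the 8 genes and edgeR 0, while 0.0191% of 26185 genes were called, and 2 members had an unadjusted p under 0.05. For *Cyp2b10* the Dex effect was larger in zinc mice by 1.08 on the log2 scale (SE 0.30, unadjusted p = 2.71e-04, adjusted p = 0.373). That difference was called without water-PBS replicate 1 (1.23, adjusted p = 0.0332), without zinc-PBS replicate 2 (1.27, adjusted p = 0.0229) or without zinc-Dex replicate 2 (1.23, adjusted p = 0.0151). The other 16 of the 19 alternatives left that difference uncalled. In the group means, *Cyp2b10* levels with Dex were 6189 ± 722 in plain-water and 6639 ± 1870 (SD, n = 3) in zinc mice. The levels with PBS were 384 ± 96.8 and 194 ± 44.3. For *Cyp3a25* the interaction was 0.40 (unadjusted p = 0.0182, adjusted p = 0.999 in DESeq2). For *Cyp3a11* (0.11), *Por* (-0.09) and *Alas1* (0.21), the 95% intervals ran from -0.21 to 0.43, from -0.41 to 0.23 and from -0.91 to 1.32.

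Because *Cyp3a11* and *Por* differed in the same direction under PBS and under Dex, the zinc difference was averaged over both, a comparison chosen after the data were seen. *Cyp2b9*, *Cyp2b13*, *Cyp3a13* and *Alas1* also kept their sign, at unadjusted p above 0.05 in DESeq2 each time. In the averaged comparison, 0 members were called by DESeq2 and 0 by edgeR, and 0.333% of all genes tested were called. An unadjusted p under 0.05 was found for 3 members, but 2 of these were *Cyp3a11* and *Por*, so this count is no test. The averaged log2 difference was -0.42 (SE 0.08) for *Cyp3a11* and 0.28 (SE 0.08) for *Por*. As these 2 genes prompted the comparison, their values restate the differences above and are given as a description with no test. *Cyp2b10* had a log2 difference of -0.44 (SE 0.15, adjusted p = 0.0915 in DESeq2), which averages -0.98 with PBS and 0.10 with Dex. Within the Cyp3a members, *Cyp3a11* made up 72.6% ± 1.48 in water-PBS and 67.6% ± 2.53 in zinc-PBS, and 79.6% ± 1.1 in water-Dex and 72.9% ± 2.89 in zinc-Dex (SD, n = 3).

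Zinc and Dex together were compared with the control. In zinc-Dex against water-PBS, 3 of the 8 genes were called, all higher, while 11.2% of all genes tested were called. They were *Cyp2b10* (log2 fold change 4.11), *Alas1* (2.28) and *Por* (1.75). *Cyp3a11*, *Cyp3a13* and *Cyp3a25* passed on the adjusted p (3.89e-04, 0.00127 and 0.00186 in DESeq2) but not on size, with log2 differences of 0.47, 0.47 and 0.44. *Cyp3a11* thus was called with Dex in each drinking group but not in this comparison, which has the lower zinc-Dex level on one side and the plain-water control on the other. This comparison shares its control mice with that of Dex in plain-water mice.

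The receptors and regulators were viewed next, as a list of 12 genes chosen by role. CAR itself (*Nr1i3*) had 391.7, 444.1 and 431.6 normalized counts in water-PBS and 302.6, 303.1 and 291.9 in water-Dex. Its log2 difference with Dex was -0.50 (adjusted p = 4.27e-05 in DESeq2) in plain-water and -0.21 (adjusted p = 0.157) in zinc mice. Neither reached the size required. PXR (*Nr1i2*) went the other way, with 822.3, 884.6 and 788.5 in water-PBS and 1164, 1384 and 1186 in water-Dex. Its log2 differences were 0.58 (adjusted p = 1.05e-06) and 0.75 (adjusted p = 5.52e-11), again under the size required. The glucocorticoid receptor gene *Nr3c1* had differences of -0.31 (adjusted p = 9.53e-04) and -0.56 (adjusted p = 2.98e-11). With zinc alone, the log2 differences of these 3 receptors lay between -0.06 and 0.04.

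In the list of regulators, 2 of 12 genes were called with Dex in plain-water mice, both lower, and 3 in zinc mice, 1 higher and 2 lower, where 9.68% of all genes tested were called in each comparison. The clock genes *Nr1d1* (-2.15 and -1.49) and *Dbp* (-3.60 and -2.45) fell in both. *Ppargc1a*, a coactivator also known to act on the *Alas1* gene, rose in zinc mice (0.84, adjusted p = 1.83e-04 in DESeq2) and had a log2 difference of 0.60 in plain-water mice. With zinc and PBS, 0 of the 12 were called by DESeq2 or edgeR and 3 had an unadjusted p under 0.05. *Tef*, a factor of the same family as *Dbp*, was higher with zinc in Dex-injected mice (0.89, adjusted p = 3.37e-04) and had a log2 difference of 0.73 with zinc in PBS-injected mice (adjusted p = 0.0163). *Dbp* had 260, 285.9 and 269.8 normalized counts in zinc-PBS, above the 31.5 to 142.8 of water-PBS (log2 difference 1.70, adjusted p = 0.896). *Nr0b2*, which encodes the repressor SHP, had 134.9 to 160.7 in zinc-PBS, below the 280 to 583.9 of water-PBS (-1.47, adjusted p = 0.0726). Averaged over PBS and Dex, 3 of the 12 were called for zinc by DESeq2, where 0.333% of all genes tested were called. In this comparison, added after the data were seen, *Tef* (0.81) and *Dbp* (2.27) were higher and *Nr0b2* (-1.17) lower, and edgeR called 2. The count was 1 without water-PBS replicate 1, zinc-PBS replicate 1, water-Dex replicate 1, zinc-Dex replicate 1 or zinc-Dex replicate 3. The median of the list lay between -0.12 and 0.10 in the 4 comparisons of a single treatment.

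Other targets of CAR and PXR gave a mixed picture. Of 22 listed genes, 3 were called with Dex in plain-water mice, all higher, where 4.89% of all genes tested were: *Gadd45b* (log2 fold change 3.97), *Gstm3* (1.43) and *Sult1d1* (1.26). *Gadd45b* encodes a stress-response protein, *Gstm3* a glutathione transferase and *Sult1d1* a sulfotransferase. In zinc mice 4 were called higher, these 3 (3.73, 1.45 and 1.22) and the carboxylesterase gene *Ces2a* (1.02), where 5.0% of all genes were. The remaining listed genes were not called, and the list's median log2 fold change was 0.07 and 0.26 in the 2 comparisons. On the adjusted p in DESeq2 alone, 5 of the 22 passed in plain-water and 10 in zinc mice. Over all genes tested, 3067 of 14221 and 3145 of 15657 did. The Cyp2c genes of the list were among those not called: *Cyp2c29*, the most abundant, had differences of 0.15 and 0.21. With zinc and PBS, 0 of the 21 tested were called by DESeq2 or edgeR and 2 had an unadjusted p under 0.05. With zinc and Dex against Dex alone, DESeq2 called 2 of the 21 tested, both higher, beside 0.469% of all genes tested. They were *Cyp2c55* (1.10, adjusted p = 0.00524 in DESeq2) and the glutathione transferase gene *Gsta2* (1.01, adjusted p = 0.00127), and edgeR called 0 of the list. *Cyp2c55* had 218.3, 217.7 and 332.6 normalized counts in zinc-Dex, above the 99.97 to 154.4 of water-Dex. In zinc-Dex against water-PBS 5 of the 22 were called, all higher, with the transporter gene *Abcc2* (0.84) among them, where 11.2% of all genes were called in either direction.

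**Figure D4:**
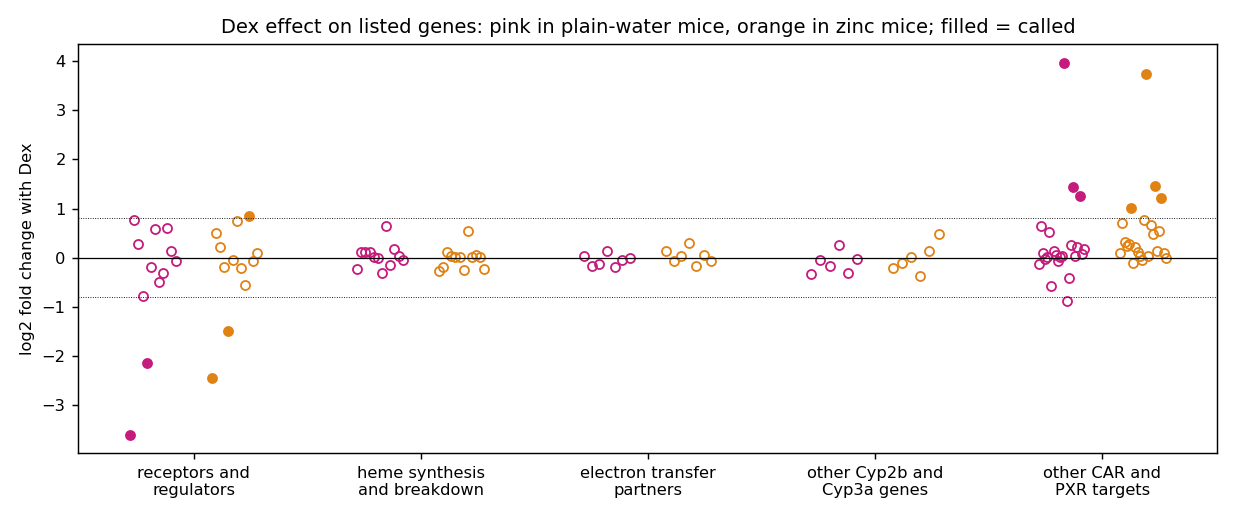
Log2 fold change with Dex (y axis) for the genes of 5 lists (x axis), in plain-water mice (pink) and in zinc mice (orange), with filled points for called genes and dotted lines at 0.8 in either direction. Called genes occur among the regulators and the other CAR and PXR targets, at 3.97 and 3.73 for the uppermost, *Gadd45b*; the heme, electron transfer and further Cyp genes have open points only.

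Of the heme pathway, *Alas1* was the gene called. Of 12 listed genes of heme synthesis and breakdown other than *Alas1*, DESeq2 and edgeR each called 0 in both Dex comparisons. In each, 2 had an unadjusted p under 0.05. On the adjusted p in DESeq2, 1 passed in plain-water and 2 in zinc mice, beside 3067 of 14221 and 3145 of 15657 genes tested. The medians of the list were 0.02 and 0.01. *Fech*, which inserts iron to make heme, had differences of 0.01 and 0.02, and *Alad*, the enzyme after *Alas1*, had -0.23 and -0.26. The largest was that of the heme oxygenase gene *Hmox2*, at 0.65 (adjusted p = 3.67e-07 in DESeq2) and 0.54 (adjusted p = 3.28e-05), under the size required. With zinc, 0 were called by DESeq2 or edgeR and 0 had an unadjusted p under 0.05, in PBS-injected and in Dex-injected mice.

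Among 7 other genes of electron transfer to cytochromes, 0 were called by DESeq2 or edgeR in the 4 comparisons of a single treatment. At an unadjusted p under 0.05 there was 1 with Dex in zinc mice and 1 with zinc in Dex-injected mice. In both it was *Fdx1*, the mitochondrial ferredoxin (0.31 and 0.37). With Dex in zinc mice *Fdx1* passed on the adjusted p in DESeq2 but not on size. *Cyb5a*, which hands electrons to microsomal cytochromes as *Por* does, had log2 differences with Dex of 0.03 and 0.14. Of 8 further genes of the Cyp2b and Cyp3a families, 5 or 6 had enough reads to be tested, and 0 were called in these comparisons by either tool. At an unadjusted p under 0.05 there was 1 with Dex in zinc mice and 1 with zinc in Dex-injected mice, *Cyp3a59* each time (0.49 and 0.51). With Dex in zinc mice *Cyp3a59* also passed on the adjusted p in DESeq2 but not on size. *Cyp3a41a* and *Cyp3a41b* share 98.6% and 93.5% of their 50-base stretches with other genes, so their counts are uncertain.

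The genes whose profile over the 12 libraries was most like that of a called member were looked up among the 9566 genes whose mean normalized count reached 50. Likeness was measured as the root mean square difference between centred log2 levels. Nearest to *Cyp2b10* were *Phf11c* (0.43), *Ddit4* (0.50) and *Mdm1* (0.52), which had log2 fold changes with Dex in plain-water mice of 4.52, 5.11 and 4.34. Their differences with zinc in PBS-injected mice were -0.22, -0.57 and 0.07, beside -0.98 for *Cyp2b10*. Nearest to *Cyp3a11* were *Mrtfa* (0.16), *Slc5a3* (0.17) and *Cdk17* (0.18). *Slc5a3* had a zinc difference of -0.42 with PBS and -0.32 with Dex, beside -0.48 and -0.36 for *Cyp3a11*. Nearest to *Por* were *Map3k5* (0.11), *Klhl21* (0.12) and *Serpina3n* (0.14), all with Dex differences of 1.40 to 1.43 in plain-water mice. Nearest to *Alas1* were *Spire1* (0.32), *Slc16a9* (0.33) and *Lyve1* (0.36). *Lyve1* is 1 of 6 listed markers of sinusoidal endothelium. With Dex, 1 of them was called higher and 1 lower in each drinking group, where 9.68% of all genes tested were called. *Kdr*, another of them, had a mean of 891.9 normalized counts in water-PBS and 404.8 in water-Dex. The distances between profiles are descriptions over libraries that share the large Dex difference.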

How the data were processed

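RNA of 12 mouse livers was made into stranded TruSeq libraries and sequenced single-end on a NextSeq instrument by the authors. They mapped reads to mm10 with HISAT2 2.0.4 and counted them per gene with featureCounts, leaving out multimapping reads. The deposited table holds these raw counts, whole numbers without normalization, of 54838 genes; the annotation release and strand setting are not given in the sources used here. GENCODE M21 gave 54723 symbols. Groups came from the labels, and 0 columns were left without a sample.

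The members and gene lists were chosen with earlier results of these data known. Counts were tested with DESeq2 1.42.0 in R 4.3.3 (Wald tests, 1 coefficient per group, 12 libraries, as the study's methods name), called where the adjusted p was under 0.05 and the log2 fold change past 0.8 in size. An exact permutation test of 3 against 3 cannot go below 0.1. The scripts were tested on simulated counts. Alternatives were edgeR 4.0.16 (quasi-likelihood), TMM factors, at least 10 counts in 3 libraries, no independent filtering, no Cook's distance filter, no fold change threshold, a replicate block, only the libraries compared, and each library left out. The zinc difference averaged over PBS and Dex was added after the data were seen.

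Named were all members, *Nr1i3*, *Nr1i2* and *Nr3c1*, up to 6 genes per list (most often called, then largest change), and the 3 genes nearest to each called member. Listed genes named for their role, or that did not pass, were picked after their values were seen. Normalized counts plus a pseudocount of 1 were used for profiles. Promoters came from RefSeq windows (GRCm38.p6), found for all 8 members. The listed symbol Tf was not in the annotation and was left out.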

Additional observations from a re-analysis of the deposited data

How the results depend on the processing

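The counts of called members were recomputed under each alternative. With edgeR, 0 members were called for zinc with PBS instead of 1. Without the fold change threshold the counts were 2 for zinc with PBS and 5 instead of 4 for Dex in zinc mice. They were 6 for zinc-Dex against water-PBS and 2 for zinc averaged over PBS and Dex. Those last 2 were *Cyp3a11* and *Por*, which prompted the averaged comparison. With a library left out, the count ranged from 0 to 1 for zinc with PBS, from 0 to 1 for the interaction, from 3 to 4 for Dex in plain-water mice and from 4 to 5 for Dex in zinc mice. Of 864 values of members under alternatives, 847 kept their side of the threshold, 6 fell below it and 11 passed it. A reversal was counted only where the gene was called in the main fit or the alternative, and 0 were found. Uncalled differences could change sign, as for *Cyp2b13* with zinc and PBS (-0.095 to 0.40). The cause of the changed calls was not tested, apart from the removed threshold, which admits smaller differences by construction.

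Replicate numbers are shared by the groups, so a fit with the number as a replicate block was made. It called 0 members for zinc with PBS (*Cyp2b10* -0.97, adjusted p = 0.281 in DESeq2) and changed no other member's call. Same-numbered libraries correlated at -0.204 to 0.191 in their deviations (18 pairs, 1 above 0.1), and differently numbered ones at -0.245 to 0.284 (36 pairs, 7 above 0.1), so the numbers were not taken as pairs. Over all genes, the block moved the interaction calls from 5 to 8.

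Over all genes, edgeR called 9 instead of 17 for zinc with PBS, 21 instead of 60 for zinc with Dex, 3 instead of 5 for the interaction and 24 instead of 41 for averaged zinc. Without the fold change threshold these were 42, 173, 6 and 304, and the Dex and combined comparisons gave 3067, 3145 and 3475 instead of 1376, 1516 and 1596. With no independent filtering zinc with Dex gave 40. With a library left out, calls ranged from 11 to 38 for zinc with PBS, 26 to 101 for zinc with Dex, 4 to 23 for the interaction and 15 to 64 for averaged zinc. With 3 mice per group, precision was limited by the spread between mice, widest for *Alas1* in zinc-PBS (coefficient of variation 54.1%).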
